A study of Mus musculus with 2 samples.

Results

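H19, Igf2, Igf2r, Meg3, Dlk1, Grb10 and Plagl1 are imprinted genes with roles in fetal growth, and they are 7 of the 17608 genes in the deposited expression table. They were chosen by name because H19 stood higher in CITE-seq cells named unknown than in the hashed pools. That H19 difference is therefore given as a description. Imprinted genes are expressed mainly from the maternal or the paternal copy, and many of them set the size of the fetus and placenta. The table counts molecules per gene and holds no information on which parental copy they came from.

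Both libraries held C57BL/6 mouse cells from E14.5 fetal liver, labelled as low in CD71 and CD24, read with a 10x 3' version 3 kit. The fetal liver makes most blood cells at this age. BFU-E (burst-forming unit) names an early progenitor of red cells, and CFU-E (colony-forming unit) the later stage it gives rise to. The CITE-seq library, tagged with antibodies to CD117 and CD71, held cells named unknown (2136 cells), CS CFUE (195) and CS BFUE (122). The hashed library pooled 4 isolations by magnet or by fluorescence-activated cell sorting (FACS), named PE-high (294 cells), PE-low (208), FACS CFU-E (167 cells) and FACS BFU-E (233), and 2 cells named unknown. The sources used here do not give what PE and CS stand for, or how cells got their names. Growth for 10 days with 100 uM dexamethasone or with methanol is in the labels, which do not say whether the sequenced cells went through it.

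Each named set is a part of 1 of the 2 libraries and has no replicate, so no difference below has a replicate check and no test was run. Sets held 2968491 to 62266906 unique molecular identifiers (UMIs, one per captured molecule), with medians of 23449 to 38663.5 UMIs per cell. A level is the summed UMIs of a gene per 1000000 UMIs of the set (CPM). Levels carry 95% exact Poisson intervals, ratios 95% exact conditional binomial intervals and shares of cells 95% exact binomial intervals, all for counting error only. The 2 libraries shared 0 cell barcodes, and doublets were not called. Clustering, run without any imprinted gene, gave 20 clusters. Clusters 1 to 7 (3107 cells) were not led by genes of another lineage or tissue, with cluster 2 led by globin genes and cluster 6 by Pf4 and Gata2. Cluster 7 (114 cells), led by Adgrl4, Cd34, Hmga2 and Mpo among others, was left unnamed: its CFU-E stage markers summed to 71.4 CPM, against 2245 CPM in all other cells, and its granulocyte progenitor markers to 2123 CPM, against 200 CPM. The rest were clusters 8 to 14 (228 cells), led by genes of other blood lineages, and clusters 15 to 20 (22 cells), led by genes of other tissues. Klf1, an erythroid transcription factor, had a UMI in 95.9% of cells of clusters 1 to 7, and in 10.1% of cells of clusters 8 to 14. Clusters 1, 2 and 5 came from the CITE-seq library alone and clusters 3 and 4 from the hashed library alone, so library and cluster cannot be told apart there.

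The 7 genes fall into linked groups. Igf2 encodes a fetal growth factor, Igf2r the mannose 6-phosphate receptor that takes it up for breakdown, and Grb10 an adaptor that dampens insulin and insulin-like growth factor signalling. H19 lies near Igf2 and makes a noncoding RNA that restrains growth and carries miR-675. Dlk1, a Notch-like membrane protein of progenitors and fetal tissues, neighbours Meg3, a noncoding RNA made from the other parental copy. Plagl1 is a zinc finger factor that arrests cell growth and acts on several of the other genes in this network. In RefSeq annotation of GRCm38.p6, H19 lies at chr7:142575530-142578146 and Igf2 at chr7:142650768-142666816. Dlk1 lies at chr12:109452485-109463336 and Meg3 at chr12:109540996-109571729. Igf2r lies at chr17:12682406-12769706, Grb10 at chr11:11930499-12037428 and Plagl1 at chr10:13090832-13131694. The noncoding gene Airn overlaps Igf2r, and Igf2os overlaps Igf2. The sources used here do not say whether counting used strand, so reads of these overlapping pairs are uncertain. Airn stood at 1.69 to 3.83 CPM over the 7 sets, and Igf2os had 9 UMIs in CITE-seq unknown cells and 0 in the other 6 sets.

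The 2 mature products of Mir675, which lies inside H19 at chr7:142577064-142577147 on the minus strand, are shown because H19 is their precursor. Bases 2 to 8, the seed that pairs with targets, are in capitals. These arms have different seeds, and neither was measured here, since the kit captures polyadenylated transcripts.
mmu-miR-675-5p: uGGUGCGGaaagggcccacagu
mmu-miR-675-3p: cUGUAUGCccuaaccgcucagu

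The 250 bases before the listed starts of Dlk1, Igf2r and Grb10 are shown because these are the 3 members with most of their UMIs in clusters 1 to 7. RefSeq start windows were matched for 6 of the 7 genes, 11 windows in all, and H19 was the gene not matched. Capitals mark GGGCGG, the GC box, read on both strands. Igf2r is at chr17:12769707-12769956 (minus strand), Dlk1 at chr12:109452573-109452822 (plus strand), Grb10 start 1 at chr11:12037421-12037670 (minus strand) and Grb10 start 2 at chr11:12027972-12028221 (minus strand), all in GRCm38.p6.
Igf2r start 1: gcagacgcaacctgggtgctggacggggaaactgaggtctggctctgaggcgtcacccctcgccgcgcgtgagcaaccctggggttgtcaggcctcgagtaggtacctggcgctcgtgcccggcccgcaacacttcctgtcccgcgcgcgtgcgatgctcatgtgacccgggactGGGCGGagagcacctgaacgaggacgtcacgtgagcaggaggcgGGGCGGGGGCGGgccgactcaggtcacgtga
Dlk1 start 1: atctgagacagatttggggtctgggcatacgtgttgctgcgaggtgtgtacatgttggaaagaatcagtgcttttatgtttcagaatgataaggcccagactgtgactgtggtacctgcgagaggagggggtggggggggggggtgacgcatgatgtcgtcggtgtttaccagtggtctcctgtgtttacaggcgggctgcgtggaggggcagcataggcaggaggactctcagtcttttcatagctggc
Grb10 start 1: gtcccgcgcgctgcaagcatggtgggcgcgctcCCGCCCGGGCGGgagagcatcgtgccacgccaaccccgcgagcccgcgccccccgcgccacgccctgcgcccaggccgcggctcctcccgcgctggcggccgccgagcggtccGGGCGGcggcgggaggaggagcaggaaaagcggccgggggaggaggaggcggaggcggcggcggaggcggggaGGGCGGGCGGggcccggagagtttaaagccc
Grb10 start 2: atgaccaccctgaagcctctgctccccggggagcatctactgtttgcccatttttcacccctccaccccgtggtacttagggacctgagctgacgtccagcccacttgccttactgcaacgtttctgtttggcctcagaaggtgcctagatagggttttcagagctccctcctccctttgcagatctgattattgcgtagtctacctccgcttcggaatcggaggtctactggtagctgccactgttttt

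Igf2r start 1 held 3 GC boxes and 27 CG pairs, and Grb10 start 1 held 5 GC boxes, some overlapping, and 40 CG pairs. Dlk1 start 1 and Grb10 start 2 held 0 GC boxes and 8 CG pairs each. Both of these windows lie inside the span given above for their gene, downstream of its outer start. Over all 32851 windows of the same length in the table, 32.7% held a GC box and the median was 6 CG pairs. AGATAA, the lone spelling of a GATA site searched, and TATAAA were in none of these 4 windows on either strand, against 9.99% and 12.4% of all windows. Other spellings, such as TGATAA in the Dlk1 window and AGATAG in Grb10 start 2, were not counted. These counts describe letters and not bound factors.

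Grb10 was the member with the highest level in each of the 7 sets, and the lone one to reach 50 CPM in a set. Its level was 54.1 CPM in CITE-seq unknown cells, 67.0 in CS CFUE and 63.3 in CS BFUE. In the hashed library it was 75.6 CPM in PE-high, 80.5 in PE-low, 70.3 for FACS CFU-E and 82.2 for FACS BFU-E. The CITE-seq sets were the 3 lowest, and sets next to each other in the order of levels had overlapping intervals. Grb10 had a UMI in 70.2% of CITE-seq unknown cells, and in the hashed library in 92.8% of FACS CFU-E cells and 73.0% of FACS BFU-E cells.

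**Figure D1:**
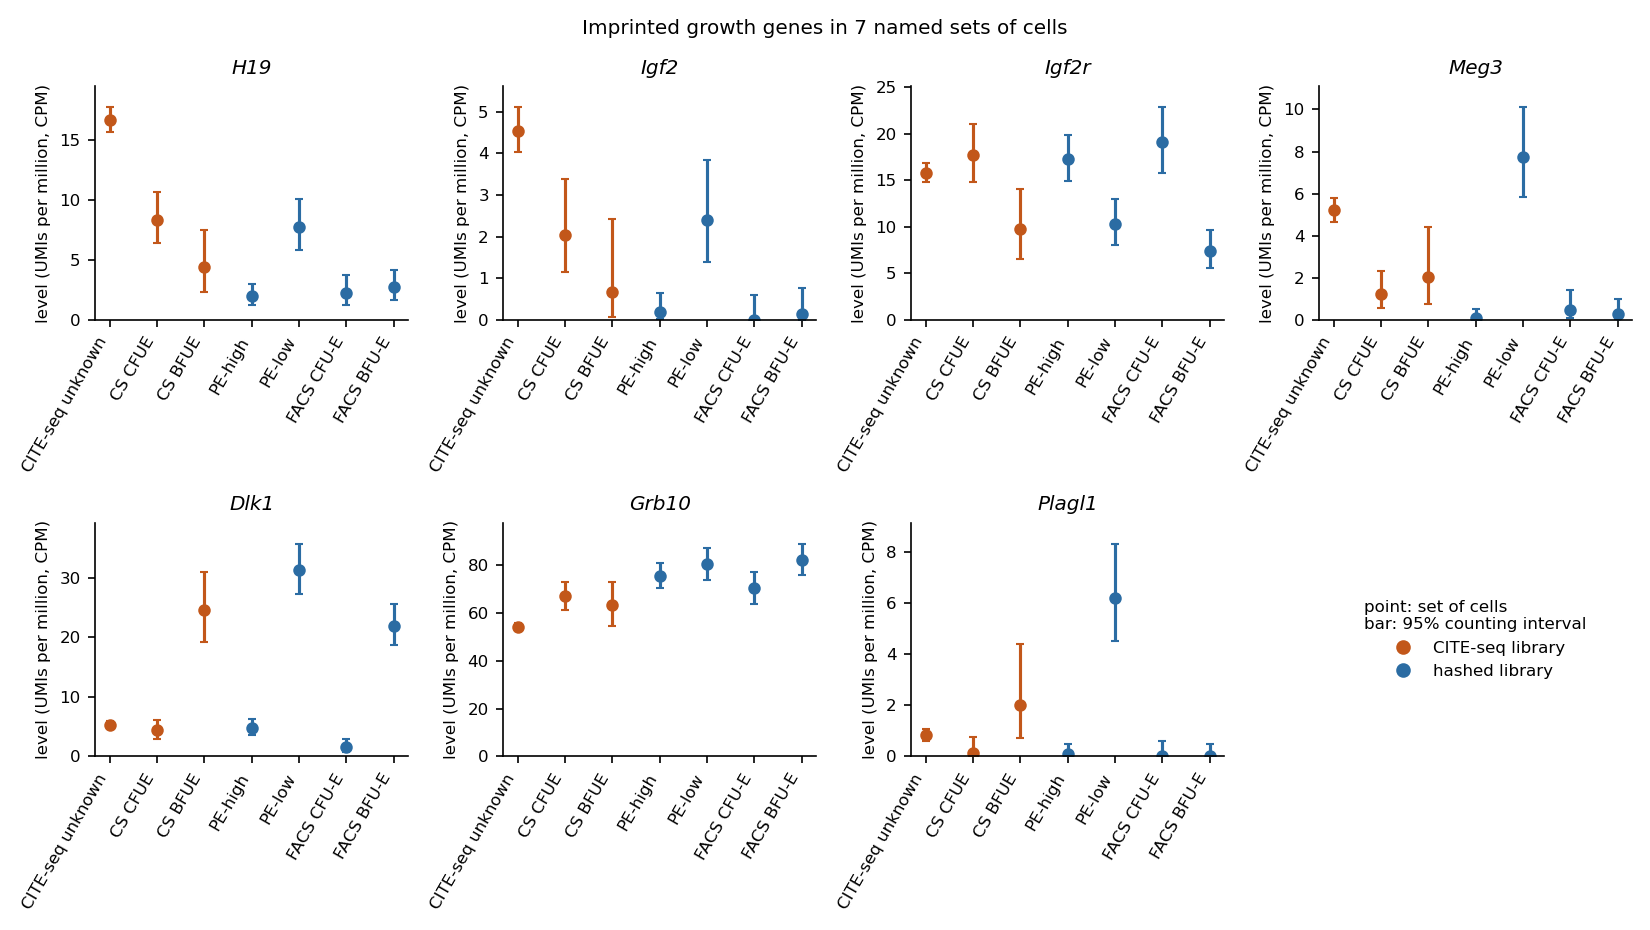
Level of each gene in UMIs per 1000000 (vertical axis, linear from 0) in the 7 named sets of cells; points are sets, bars 95% Poisson intervals, orange the CITE-seq library and blue the hashed library. Grb10 stands at 54.1 to 82.2 CPM in all sets, Dlk1 and Igf2r lean opposite ways between the stages, and H19 is highest in CITE-seq unknown cells.

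Comparisons of pools took genes with at least 50 CPM in a pool and a UMI in 10% of its cells. A ratio of 1.5 or more, either way, counted as past the fold. Grb10 was the 1 of 7 members to enter, and it lay inside 1.5-fold in all 8 comparisons. By this rule 9.15% of 3476 genes were higher and 9.58% lower for FACS CFU-E over FACS BFU-E. For PE-high over PE-low the shares were 5.84% higher and 6.94% lower, and for CS CFUE over CS BFUE 10.7% higher and 8.77% lower. The Grb10 ratio was 0.855 (0.755 to 0.969) for FACS CFU-E over FACS BFU-E, 0.940 (0.844 to 1.05) for PE-high over PE-low and 1.06 (0.892 to 1.26) for CS CFUE over CS BFUE. By method it was 0.979 (0.872 to 1.0996) for PE-low over FACS BFU-E and 1.08 (0.957 to 1.21) for PE-high over FACS CFU-E, where 0.306% and 0.706% of genes were higher and 0.49% and 0.123% lower. CITE-seq unknown over hashed pools gave 0.701 (0.666 to 0.739), a log2 ratio of -0.51, with a median of -0.27 over 3217 genes of which 5.1% were higher and 11.0% lower. Against CS BFUE, where 8.78% of genes were higher and 9.05% lower, the CITE-seq unknown ratio was 0.855, and against CS CFUE, where 0.705% were higher and 0.0% lower, it was 0.808.

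Among blood cells Grb10 was low in cluster 7 and in the other lineages, and higher in clusters 1 to 6. Its level was 13.8 CPM (9.81 to 18.9) in cluster 7. In cluster 6, led by Pf4 and Gata2, it was 106 CPM (95.2 to 118), and in cluster 4 it was 104 CPM. Cluster 2, led by the globin genes Hba-a1 and Hbb-bs, had 43.3 CPM (40.8 to 46.0). In the 228 cells of clusters 8 to 14 it was 3.39 CPM (2.04 to 5.29), with a UMI in 6.58% of cells against 78.5% in clusters 1 to 7. In cluster 7 the libraries lay within each other's intervals, 14.1 CPM in the CITE-seq library and 13.6 in the hashed library. Clusters 8 to 14 had median depths from 14763 to 27668 UMIs per cell and clusters 1 to 7 from 23723.5 to 38362, and the part of depth in the Grb10 levels was not tested. The earlier pools held more cells of cluster 7, with 40 in FACS BFU-E, 18 in PE-low and 33 in CS BFUE, beside 0 for FACS CFU-E, 12 in PE-high and 0 in CS CFUE. In clusters 1 to 6 alone, an alternative chosen after seeing the data, Grb10 was 70.5 CPM for FACS CFU-E and 107 for FACS BFU-E, a ratio of 0.656 (0.578 to 0.744). There PE-high over PE-low was 0.764 (0.685 to 0.852) and CS CFUE over CS BFUE 0.742 (0.621 to 0.890). Grb10 was thus lower in the later pool of each pair. These cells still include cluster 6, with 53 cells in FACS BFU-E, 48 in PE-low and 4 in CS BFUE. Cluster 6 had 0 cells in FACS CFU-E, 1 in PE-high and 0 in CS CFUE, and its part in these ratios was not tested.

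**Figure D2:**
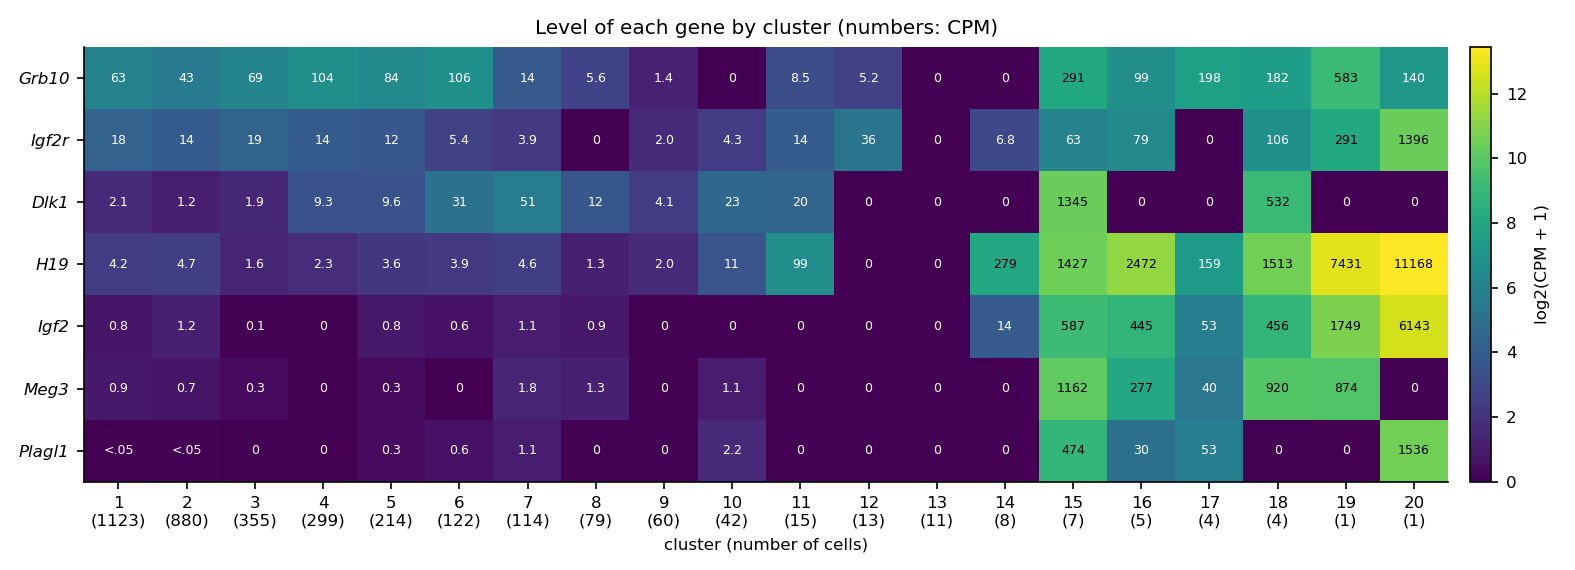
Level of each gene (rows) in each of 20 clusters (columns, with the number of cells); colour is log2(CPM + 1) and the printed numbers are CPM. Grb10 is at 43.3 to 106 CPM in clusters 1 to 6 and at 13.8 in cluster 7, Dlk1 is highest of the blood clusters in cluster 7, and H19, Igf2 and Meg3 peak in clusters 15 to 20.

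Dlk1 was lower in the later pool of each of the 3 stage pairs. FACS CFU-E cells had 1.60 CPM (10 UMIs) and FACS BFU-E cells 21.97 CPM (162 UMIs), a ratio of 0.0730 (0.0344 to 0.138). PE-high cells had 4.82 CPM and PE-low cells 31.3 CPM, a ratio of 0.154 (0.112 to 0.208). CS CFUE cells had 4.37 CPM and CS BFUE cells 24.6 CPM, a ratio of 0.178 (0.114 to 0.273). The intervals of the 3 later pools and of the 3 earlier pools did not overlap. CITE-seq unknown cells, at 5.35 CPM (4.79 to 5.95), lay beside the later pools. Dlk1 had a UMI in 3.59% of FACS CFU-E cells and 35.6% of FACS BFU-E cells, and after each cell was thinned to 15000 UMIs in 3.05% and 25.8%.

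One PE-low cell of cluster 15 held 77 of the 222 Dlk1 UMIs of its pool. In clusters 1 to 7 alone the PE-high and PE-low levels were 4.46 and 21.9 CPM, a ratio of 0.203 (0.143 to 0.285). There the ratio of PE-low over FACS BFU-E was 0.944 (0.740 to 1.20), against 1.43 with all cells. PE-high over FACS CFU-E stayed at 3.08 (1.49 to 7.13) in clusters 1 to 7, against 3.00 with all cells. By cluster, Dlk1 was 51.3 CPM (43.3 to 60.3) in cluster 7, with a UMI in 49.1% of its 114 cells. It was 31.0 CPM in cluster 6, 9.31 in cluster 4, 9.60 in cluster 5 and 1.20 in the globin-led cluster 2. Granulocyte progenitor-like cells of cluster 8 had 11.6 CPM (7.66 to 16.9). Granulocyte progenitor transcripts summed to 6.42 CPM in FACS CFU-E and 1338 CPM in FACS BFU-E, so other lineages differed between those pools too, and the Dlk1 ratio in clusters 1 to 7 was 0.0624 (0.0280 to 0.122). Those clusters still hold cluster 7, where Mpo stood at 1304 CPM. With cluster 7 left out too, Dlk1 was 1.45 CPM for FACS CFU-E and 17.1 for FACS BFU-E, a ratio of 0.0849 (0.0376 to 0.168). There PE-high over PE-low was 0.128 (0.0798 to 0.198) and CS CFUE over CS BFUE 0.180 (0.0947 to 0.333), while PE-high over FACS CFU-E was 1.72 (0.779 to 4.16). Cluster 6, with more cells in the earlier pool of each stage pair, remained in these ratios, and its part was not tested.

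Igf2r showed the opposite lean. FACS CFU-E cells had 19.1 CPM and FACS BFU-E cells 7.46 CPM, a ratio of 2.56 (1.84 to 3.59). PE-high cells had 17.3 CPM and PE-low cells 10.3 CPM, a ratio of 1.68 (1.27 to 2.23). CS CFUE cells had 17.8 CPM and CS BFUE cells 9.77 CPM, a ratio of 1.82 (1.21 to 2.82). The interval of FACS CFU-E (15.8 to 22.8) lay above those of all 3 earlier pools, while that of CS BFUE (6.54 to 14.03) reached close to that of CS CFUE (14.8 to 21.1). In clusters 1 to 7 the 3 ratios were 2.33, 1.51 and 1.60, with intervals that excluded 1. Without cluster 7 they were 2.06 (1.47 to 2.93), 1.43 (1.08 to 1.92) and 1.47 (0.926 to 2.43), so the last interval included 1. Cluster 6 was still among those cells. CITE-seq unknown over hashed pools was 1.15 (1.02 to 1.29). Igf2r was spread over many cells: the 379 cells richest in Igf2r held 50% of its UMIs, and no cell held more than 10. It had 3.89 CPM in cluster 7, 5.37 in cluster 6 and 17.96 in cluster 1.

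Without the level filter, genes with more than 3 UMIs in either pool were compared. In FACS CFU-E over FACS BFU-E, 4 members could be compared. Of these 1 (Igf2r) was higher and 1 (Dlk1) lower, while 11.4% of all genes were higher and 28.2% lower. In PE-high over PE-low 1 of 7 members was higher and 5 lower, against 9.63% and 27.0% of all genes. In CS CFUE over CS BFUE 3 of 7 were higher and 3 lower, against 13.3% and 26.4%. By method, 4 of 7 were higher and 0 lower in PE-low over FACS BFU-E (all genes 9.34% and 7.7%), and 1 of 4 higher and 0 lower in PE-high over FACS CFU-E (13.1% and 3.86%). CITE-seq unknown over hashed pools, the contrast that chose the set, had 3 of 7 higher and 2 lower (9.33% and 29.6%). Over CS BFUE 4 were higher and 2 lower (10.0% and 39.2%), and over CS CFUE 4 higher and 0 lower (12.0% and 15.8%). With a limit of 20 CPM, 2 of 7 members entered and Dlk1 was the 1 lower in each stage pair, where 13.6% (FACS), 9.85% (PE) and 12.5% (CS) of genes were lower. At that limit it was also the 1 lower in CITE-seq unknown over CS BFUE, where 12.8% of genes were. Most members had few UMIs, and those of H19, Igf2, Meg3 and Plagl1 in PE-low lay largely in 1 cell.

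An erythroid index ordered the cells from early to late. It is the log2 difference between summed CPM of CFU-E and erythroblast genes and summed CPM of early erythroid genes, each plus 100, and all cells were split into 5 equal bins, 1 being the earliest. In the CITE-seq library, clusters 1 to 7, Dlk1 stood at 16.2, 4.15, 1.18, 1.59 and 1.38 CPM in bins 1 to 5. In the hashed pools it stood at 32.1, 7.89, 1.81, 2.43 and 0.352 CPM. Both libraries thus had the highest Dlk1 level in the earliest bin. The cells binned include cluster 7, high in Dlk1 and low in Igf2r and Grb10, and bins were not computed without it. Igf2r was lowest in bin 1, at 10.1 CPM in the CITE-seq library and 6.87 in the hashed pools, and highest in bin 4 of the CITE-seq library (18.03) and bin 3 of the hashed pools (21.0). Grb10 in the CITE-seq library was 79.8, 71.8, 61.8, 49.1 and 40.6 CPM over the bins, and in the hashed pools 88.0, 104, 78.6, 64.2 and 64.7 CPM. H19 in clusters 1 to 7 had overlapping intervals over all bins of a library, between 4.005 and 5.18 CPM in the CITE-seq library and between 1.48 and 2.73 in the hashed pools.

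**Figure D3:**
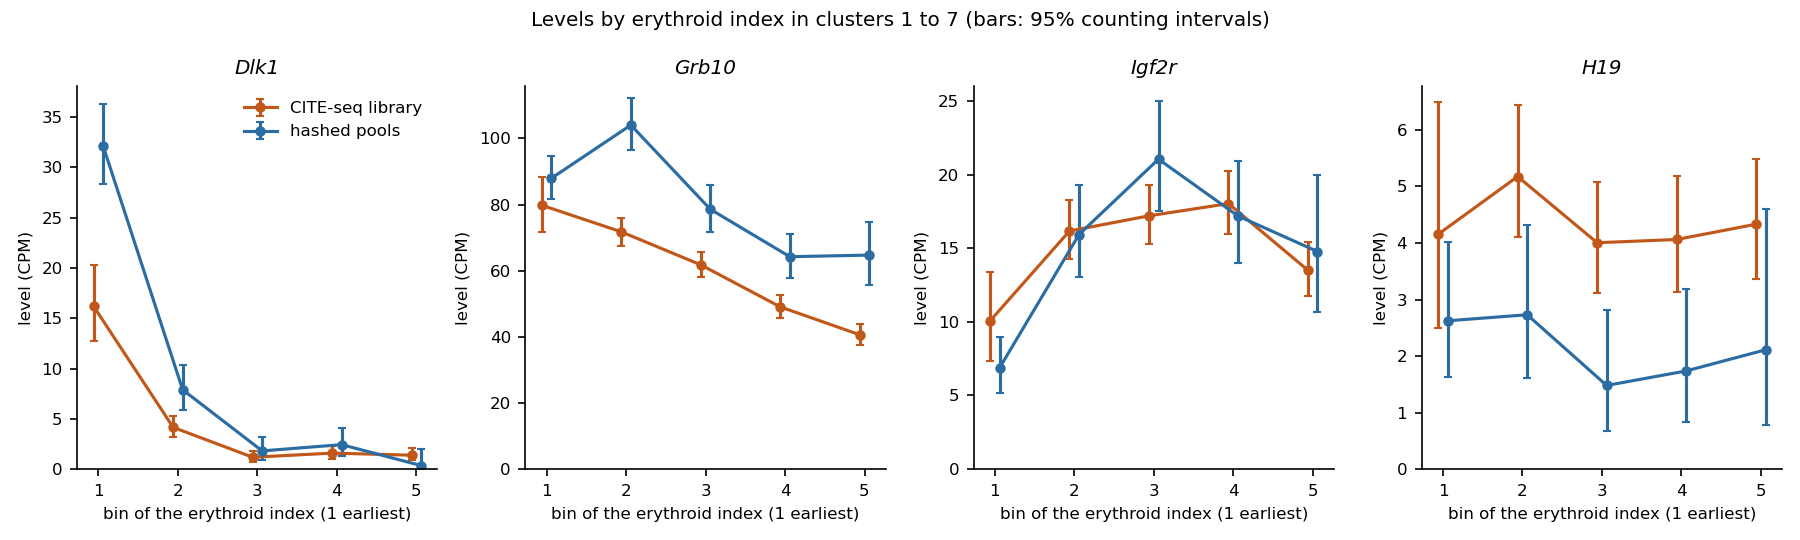
Level (CPM, linear from 0) of 4 genes over 5 bins of the erythroid index, earliest to latest, in clusters 1 to 7; orange is the CITE-seq library, blue the hashed pools, bars 95% Poisson intervals. Dlk1 is highest in bin 1 and Igf2r lowest there in both libraries, Grb10 is lower in the late bins, and H19 is flat within its intervals.

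H19 was the member that chose the set. Its level was 16.7 CPM (15.7 to 17.7, 1039 UMIs) in CITE-seq unknown cells, 8.34 (61 UMIs) in CS CFUE and 4.38 (13 UMIs) in CS BFUE. In the hashed library it was 2.00 CPM (22 UMIs) in PE-high, 7.76 (55 UMIs) in PE-low, 2.25 (14 UMIs) for FACS CFU-E and 2.71 (20 UMIs) for FACS BFU-E. CITE-seq unknown cells thus had the highest level, with an interval above all others, and the sets below them overlapped with their neighbours in order. In FACS BFU-E 1 cell held 12 of the 20 UMIs. The ratio of CITE-seq unknown over hashed pools, which the choice rests on, was 4.76 (3.91 to 5.85). CITE-seq unknown over CS-named cells was 2.32 (1.83 to 2.98), and CS-named cells over hashed pools 2.05 (1.51 to 2.78).

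Most H19 molecules lay in few cells. The 22 cells of clusters 15 to 20, 0.655% of all cells with 0.461% of all UMIs, held 818 of the 1275 H19 UMIs (64.2%), and 20 of these 22 cells had one. Without regard to clusters, the 22 cells richest in H19 held 68.5%. Cluster 18, hepatocyte-like with Alb at 21241 CPM, had H19 at 1513 CPM in 4 cells. Cluster 17, endothelium-like with Lyve1 and Ramp2, had 159 CPM in 4 cells. Cluster 15, 7 cells led by Sftpc, Col3a1 and Col1a1, had 1427 CPM, and cluster 16, 5 cells led by Lgals4 and Epcam, had 2472 CPM. Clusters 19 and 20 were 1 cell each, led by Eln and by Igfbp5, with 7431 and 11168 CPM. Clusters 15, 16, 19 and 20 were not given a cell type name. Of the 4 cells of cluster 18, 3 carried Klf1 and Kit UMIs: 2 named CS CFUE, beside 159 and 120 Alb UMIs, and 1 named CITE-seq unknown, beside 388 Alb UMIs. Whether any was a doublet was not tested.

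**Figure D4:**
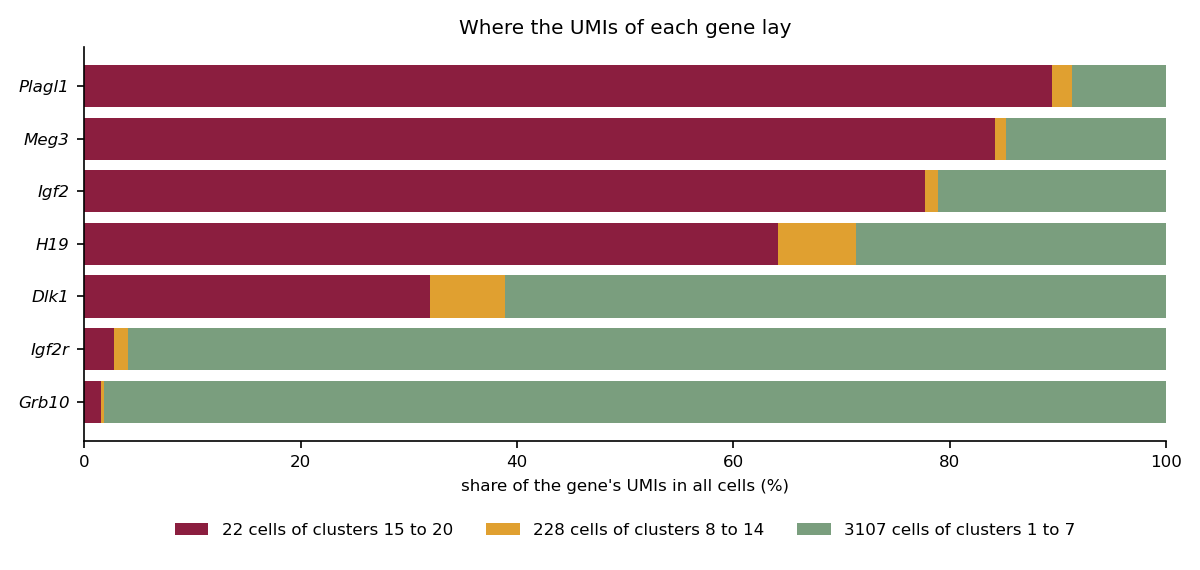
Share of each gene's UMIs (horizontal axis, %) in 3 groups of clusters that together make up all 3357 cells. The 22 cells of clusters 15 to 20 hold 64.2% of H19 UMIs and 89.4% of Plagl1 UMIs, and 1.54% of Grb10 UMIs.

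Clusters 15 to 20 held 16 CITE-seq unknown cells, 2 CS CFUE, 1 CS BFUE, 2 PE-low cells and 1 hashed cell named unknown. Once clusters 8 to 20 were left out, H19 was 4.24 CPM in CITE-seq unknown cells, 5.27 in CS CFUE and 4.90 in CS BFUE. It was 1.95 CPM in PE-high, 1.88 in PE-low, 1.93 for FACS CFU-E and 3.10 for FACS BFU-E. The ratio of CITE-seq unknown over hashed pools was then 1.94 (1.47 to 2.59), that of CS-named cells over hashed pools 2.37 (1.61 to 3.47), and that of CITE-seq unknown over CS-named cells 0.819 (0.604 to 1.13). With only the 22 cells left out, a setting chosen after seeing the data, the first ratio was 2.21 and the last 1.04. With cluster 7 left out as well as clusters 8 to 20, they were 1.92 and 0.873.

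**Figure D5:**
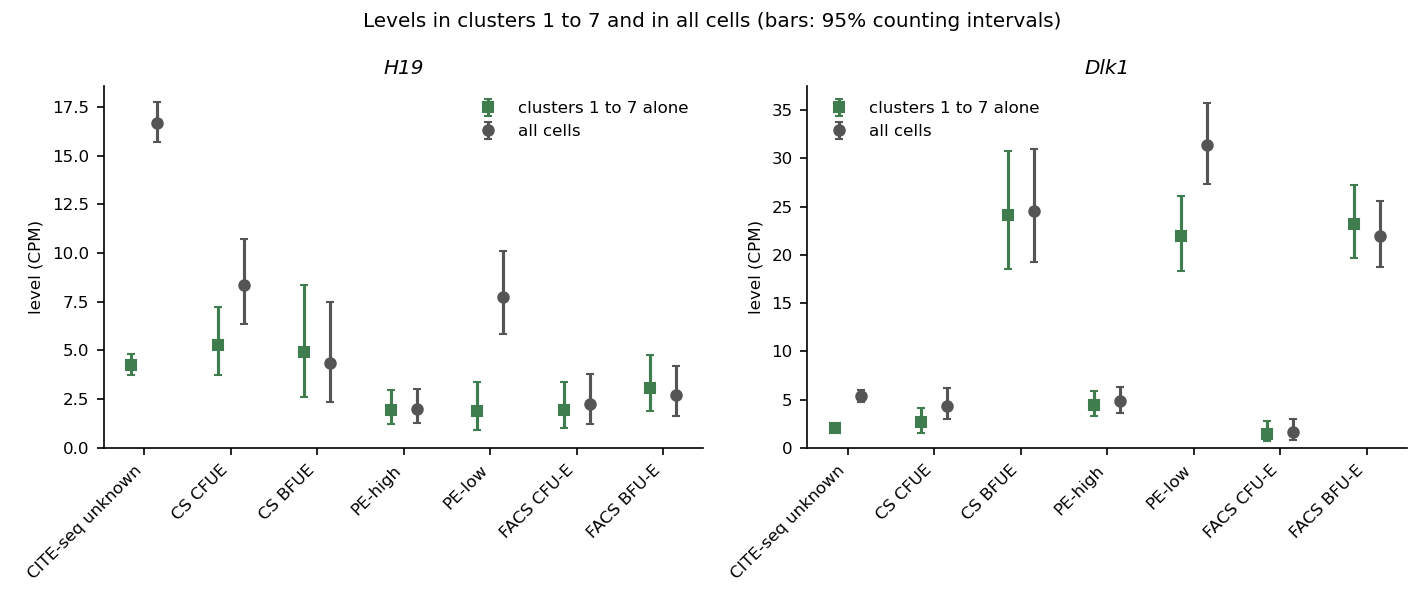
Level (CPM, linear from 0) of H19 and Dlk1 in each named set, green squares for clusters 1 to 7 alone and grey circles for all cells, bars 95% Poisson intervals. H19 in CITE-seq unknown cells stands at 4.24 CPM in clusters 1 to 7 and 16.7 in all cells, while Dlk1 keeps its gap between later and earlier pools in both.

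Hepatocyte transcripts moved with the library in the same direction. In clusters 1 to 7, Alb (serum albumin) was 11.8 CPM in the CITE-seq library and 1.13 in the hashed library, Afp (alpha-fetoprotein) 11.6 and 0.648, and H19 4.37 and 2.18. Alb had a UMI in 28.8% of CITE-seq cells and 3.75% of hashed cells there, and H19 in 11.3% and 4.60%, at median depths of 29667 and 36312 UMIs. H19 UMIs per Alb UMI were 0.370 in the CITE-seq library and 1.94 in the hashed library, against 0.0712 in cluster 18. Over all cells of each set, the 12 hepatocyte markers summed to 182 CPM in CITE-seq unknown cells and 14.9 in the hashed pools, with Ahsg at 0 in the hashed pools. Alb alone was 52.0 CPM in all CITE-seq unknown cells and 11.6 in those of clusters 1 to 7. In that set 2 cells of cluster 18 held 2127 and 388 Alb UMIs. The part of free RNA in the H19 level was not tested. After thinning, H19 had a UMI in 6.76% of CITE-seq unknown cells, 7.01% of CS-named cells and 2.48% of hashed cells, with 80, 3 and 16 shallower cells left out.

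Among the other blood types H19 was high in 2 small clusters. Cluster 14, 8 CITE-seq unknown cells led by the T cell genes Gzma, Cd3g and Trbc2, had 279 CPM (200 to 379), and 2 of its cells held 17 and 16 UMIs. Cluster 11, 15 cells led by the B cell genes Ebf1, Vpreb3 and Cd79a, had 99.3 CPM (69.1 to 138), with a UMI in 80% of its cells. Cluster 10, the other lymphoid-like cluster, had 10.8 CPM (5.19 to 19.9). Granulocyte progenitor-like cluster 8 had 1.29 CPM (3 UMIs) and monocyte-like clusters 9, 12 and 13 had 3, 0 and 0 UMIs. Grb10 had 0 UMIs in clusters 10 and 14 and 3 UMIs in cluster 11.

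Igf2, Meg3 and Plagl1 were low in clusters 1 to 7, at 1.00, 0.762 and 0.0508 CPM in CITE-seq unknown cells. The levels that follow are over all cells of each set. Igf2 was 4.54 CPM in CITE-seq unknown cells, 2.05 in CS CFUE, 0.674 in CS BFUE, 0.182 in PE-high and 2.40 in PE-low. FACS CFU-E cells had 0 Igf2 UMIs and FACS BFU-E cells 1 (0.136 CPM). Meg3 was 5.20, 1.23 and 2.02 CPM in the 3 CITE-seq sets in that order, and 0.0909 CPM in PE-high, 7.76 in PE-low, 0.481 for FACS CFU-E and 0.271 for FACS BFU-E. Plagl1 was 0.835 CPM in CITE-seq unknown cells, 0.137 in CS CFUE, 2.02 in CS BFUE, 0.0909 in PE-high and 6.21 in PE-low, with 0 UMIs in both FACS pools. The floor used for a count of 0, 3 UMIs of the set, equals 0.481 CPM for FACS CFU-E and 0.407 CPM for FACS BFU-E. The 22 cells held 77.7% of Igf2, 84.2% of Meg3 and 89.4% of Plagl1 UMIs, and 32.0% of Dlk1, 2.78% of Igf2r and 1.54% of Grb10 UMIs.

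A single PE-low cell of cluster 15 accounted for most of that pool's values. It held 34 of 55 H19, 15 of 17 Igf2, 52 of 55 Meg3 and 42 of 44 Plagl1 UMIs. In clusters 1 to 7, PE-low had 1 Igf2 UMI and 0 Meg3 and Plagl1 UMIs. In those clusters Igf2 was 0.958 CPM in the CITE-seq library and 0.137 in the hashed library, and Meg3 0.799 and 0.171 CPM. Igf2 and H19 were seen in the same cell in 31 of the 92 cells with Igf2, 19 of them in the 22 cells. Meg3 and Dlk1 shared 16 cells, 10 of them in the 22 cells, out of 70 cells with Meg3 and 356 with Dlk1. Dlk1 was thus found in many blood cells where its neighbour Meg3 was not detected.

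Of the 62 other imprinted genes in the table, 11 reached 50 CPM in a set and 30 stayed under 5 CPM in all 7. Gnas, the stimulatory G protein subunit, was highest, at 370 to 601 CPM. Kcnq1ot1, a noncoding RNA, was at 255 to 358 CPM, Cd81, a tetraspanin, at 147 to 257, and Commd1, a copper-handling protein, at 147 to 180. Ube3a, a ubiquitin ligase, was at 131 to 179 CPM, Nap1l4, a nucleosome assembly protein, at 113 to 166, and Tspan32, a blood cell tetraspanin, at 79.2 to 115. Pon2, Tssc4, H13 and Mcts2 were at 45.8 to 111, 32.0 to 65.4, 34.3 to 67.9 and 29.6 to 63.7 CPM. In FACS CFU-E over FACS BFU-E, 1 of 11 compared was higher (Pon2, 1.61) and 1 lower (H13, 0.640). Of all genes 9.15% were higher and 9.58% lower there. In PE-high over PE-low 0 of 11 passed either way (all genes 5.84% higher and 6.94% lower). In CS CFUE over CS BFUE H13 was the 1 of 9 lower (0.566) and 0 were higher (all genes 8.77% lower and 10.7% higher). CITE-seq unknown over hashed pools had 1 of 11 lower, Cd81 at 0.653, and 0 higher, where 11.0% of all genes were lower and 5.1% higher. The growth inhibitor Cdkn1c shared the pattern of H19, with 65.6% of its UMIs in the 22 cells, and the imprinted gene Mest had 82.0% there; both were picked after their values were seen.

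Genes of linked pathways were compared by the same rule over all cells of each pool, and their ratios were not computed without cluster 7. Over all genes the medians were 0.04, 0.02 and 0.07 (log2) in the FACS, PE and CS stage pairs. In these pairs 9.15%, 5.84% and 10.7% of all genes were higher, and 9.58%, 6.94% and 8.77% lower. The list of 35 insulin-like growth factor axis genes took in Pdk1 by its symbol, which names a pyruvate dehydrogenase kinase and not the Akt-activating kinase. Without Pdk1, 8 genes of the list entered each stage pair, with 0 higher and 3, 2 and 2 lower, and medians of -0.48, -0.27 and -0.35. Igfbp4, a binding protein that holds growth factor away from its receptor, had 1.60 CPM in FACS CFU-E against 105 in FACS BFU-E. It had 11.8 in PE-high against 78.5 in PE-low, and 5.88 in CS CFUE against 69.7 in CS BFUE. Grb2, an adaptor of receptor signalling, had ratios of 0.381, 0.524 and 0.450 in these pairs, and Pik3r1, a regulatory subunit of PI 3-kinase, was lower in the FACS pair at 0.666. Pdk1 itself was higher at 1.53, 1.83 and 1.73. In CITE-seq unknown over hashed pools, again without Pdk1, 3 of 7 were lower and 0 higher (median -0.54, all genes -0.27). Of all genes 11.0% were lower and 5.1% higher there. The lower ones of the list included Grb2 at 0.583 and Igf1r, the receptor, at 0.663.

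A list of 14 genes, drawn up as RNA-binding partners of H19 and Igf2 transcripts, also took in the chromatin protein genes Hmga1 and Hmga2. Of the 14 genes, 8, 7 and 7 entered the FACS, PE and CS pairs. Hmga2 was lower in all 3, at 5.29 CPM in FACS CFU-E against 154 in FACS BFU-E. The other pairs had 24.8 in PE-high against 136 in PE-low, and 8.88 in CS CFUE against 141 in CS BFUE. Hmga2 stood at 455 CPM in cluster 7, which had more cells in the earlier pools, and at 24.1 CPM in all other cells. These ratios, too, were not computed without cluster 7. Igf2bp3, which binds Igf2 mRNA, had ratios of 0.446, 0.509 and 0.428. Its relative Igf2bp1 was higher in the CS pair, at 1.58, as was Khsrp at 1.505. Hmga1 was at 0.637 in the FACS pair. In all, 0, 0 and 2 of the list were higher and 3, 2 and 2 lower, with medians of -0.07, -0.05 and -0.14. Of all genes 9.15%, 5.84% and 10.7% were higher and 9.58%, 6.94% and 8.77% lower. In CITE-seq unknown over hashed pools 5 of 7 were lower and 0 higher (median -0.61), where 11.0% of all genes were lower and 5.1% higher. The 5 were Hmga2 at 0.179, Igf2bp3 at 0.543, Igf2bp1 at 0.555 and Elavl1 and Dicer1 at 0.654.

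Of 22 mannose 6-phosphate sorting genes, which act beside Igf2r, 10, 9 and 8 entered the stage pairs. Of these, 3, 2 and 3 were higher and 1, 2 and 0 lower (medians 0.25, 0.21 and 0.46). All genes had 9.15%, 5.84% and 10.7% higher and 9.58%, 6.94% and 8.77% lower. The lysosomal protease Ctsb was higher at 2.42, 1.97 and 2.26, and the adaptor Ap1b1 at 1.70, 1.67 and 1.93. Gga2, which sorts the receptor's cargo, was at 1.72 in the FACS pair and 1.69 in the CS pair. Ctsc, a protease of myeloid granules, was lower at 0.319 and 0.315 in the FACS and PE pairs, and Gusb was lower at 0.665 in the PE pair. Against the hashed pools, 1 of 8 was lower in CITE-seq unknown cells (Gusb, 0.547) and 0 were higher. In that comparison 11.0% of all genes were lower and 5.1% higher. Among imprint maintenance genes, 0 of 16, 0 of 16 and 0 of 15 passed in the stage pairs, and 1 of 16 was lower in CITE-seq unknown over hashed pools (Ehmt2, a histone methyltransferase, 0.598). None of 12 Notch genes entered. Of 7 genes listed beside Plagl1 and Cdkn1c, 2 entered each stage pair, and Plagl2, a relative of Plagl1, was higher at 1.87, 1.52 and 1.91.

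The genes most like Grb10 over the 7 sets, by Pearson correlation of log2(CPM + 1) among 3634 genes with 50 CPM in a set, were Rad23b (0.983), Atad3a (0.978), Ahcyl1 (0.973), Prep (0.973) and Ydjc (0.973). The 7 points share 2 libraries, and all 5 genes, as Grb10, had their lowest level in CITE-seq unknown cells.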

How the data were processed

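The labels and the deposited tables describe 2 libraries of 10x 3' single-cell RNA sequencing. The authors deposited natural log values, ln(1 + count per 10000 of the cell), and a name for each cell. Tools named in the submitters' processing notes are Cell Ranger 4.0.0 and Scanpy, with build mm10. The sources used here name no filter on cells or genes.

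Each cell's unlogged values were divided by the value of 1 UMI, estimated from its lowest values. Of these, 16419767 of 16419767 nonzero values came out whole within 0.02. Cells were placed in a library by barcode suffix. UMIs were summed per named set, and sets were compared by ratio with no test, because none has a replicate. A set at 0 was given 3 counts. Ward clustering used 30 principal components of 2000 genes, without imprinted genes, and cluster classes were set after the clusters were seen. In a simulation of PE-high over PE-low with 3182 genes, all of 200 genes changed 2-fold were past 1.5-fold the right way, 0 unchanged genes were, and 95.1% of intervals held the true ratio. It drew Poisson counts, which the intervals assume, for genes with a mean of at least 50 CPM. It therefore checks the computation alone, and cannot show how intervals hold for lower genes or for UMIs gathered in few cells. Names came from a rule: the members, up to 5 genes of each list past 1.5-fold with the largest change, imprinted genes with 50 CPM, and 5 genes most like Grb10. The members, lists and alternatives were chosen with earlier results of these data known. Python 3.11.15, numpy 2.4.6, pandas 2.3.3 and scipy 1.17.1 were used. Sequences and positions are from RefSeq, GRCm38.p6.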

Additional observations from a re-analysis of the deposited data

Results flagged for a closer look

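H19 leaned opposite ways in 2 of the stage pairs. CS CFUE over CS BFUE was 1.90 (1.03 to 3.78) and PE-high over PE-low 0.258 (0.150 to 0.429). The difference between the pairs was not tested, and in clusters 1 to 7 the ratios were 1.08 and 1.04.

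Signal also lay in the 2 cells of the hashed library named unknown, which no comparison used. With 25533 UMIs between them, they held 51 H19, 12 Igf2, 6 Meg3 and 4 Grb10 UMIs, against 0 Dlk1 and Plagl1 UMIs. That is 1997 CPM of H19 (1487 to 2626), against 3.50 CPM in the hashed pools. All 51 H19 UMIs were in 1 cell, the lone cell of cluster 19.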

How the results depend on the processing

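No paired analysis was possible because the study has 2 libraries, each the lone one of its kind, so no group has replicates to pair. The ratio of H19 in CITE-seq unknown cells over hashed pools, 4.76, was 1.94 without other-type clusters (8 to 20) and 7.93 without the cell with the most H19 in each pool. With the 22 cells of clusters 15 to 20 left out it was 2.21, and with clusters 7 to 20 left out 1.92, alternatives chosen after seeing the data. Within bins 1 to 5 of the erythroid index, all cells and so the 22 included, it was 9.55, 9.94, 11.2, 2.25 and 2.02, with a mean of 6.999. Within the bins in clusters 1 to 7, chosen after seeing the data, it was 1.58, 1.95, 2.64, 2.02 and 2.03. CITE-seq unknown over CS-named cells, 2.32, was 0.819 without other-type clusters and 0.873 without clusters 7 to 20, both below 1, 1.04 without the 22 cells and 3.52 by the mean of per-cell CPM. CS-named cells over hashed pools, 2.05, was 1.44 by the mean of per-cell CPM and 3.04 without the richest cells. The cause of these shifts was not tested beyond the cells left out.

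Among alternatives to the member ratios by stage and method, 143 lay inside the counting interval on the same side of 1 and 9 inside it crossed 1, while 12 outside it kept their side and 11 crossed. Those 11 include a lower bound for Igf2, given below, which leaves the side of 1 undecided. Without other-type clusters, and without clusters 7 to 20, H19 was 1.04 and 1.01 for PE-high over PE-low and 0.608 and 0.565 for PE-low over FACS BFU-E. For CS CFUE over CS BFUE, Igf2 was 0.920 without other-type clusters. Without clusters 7 to 20 it was at least 0.441, from 5 UMIs in CS CFUE and 0 in CS BFUE, the 0 set to 3 counts. Without the richest cell and without clusters 7 to 20 Meg3 was 1.42 and 1.32 for CS CFUE over CS BFUE, and without those clusters Grb10 was 0.742. Dlk1 for PE-low over FACS BFU-E, 1.43, was 0.944 without other-type clusters, 0.977 without the richest cell and 0.940 without the 22 cells. H19 for FACS CFU-E over FACS BFU-E, 0.828, was 5.49 after thinning and 1.78 without the richest cells. Dlk1 and Igf2r kept their direction in all 3 stage pairs under the 7 alternatives run.

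With no level filter, members past 1.5-fold numbered 2, 6 and 6 in the FACS, PE and CS stage pairs, 4 and 1 in PE-low and PE-high over the FACS pools, and 5, 6 and 4 in CITE-seq unknown over hashed pools, CS BFUE and CS CFUE, against 0 with the filter. At 20 CPM there was 1 (Dlk1) in each stage pair, where 13.6%, 9.85% and 12.5% of genes were lower, and in CITE-seq unknown over CS BFUE (12.8%). Other imprinted genes past the fold with no filter, in the same order, numbered 24 of 47, 25 of 51, 22 of 41, 16 of 51, 3 of 42, 26 of 58, 35 of 58 and 22 of 58. With the filter they were 2 of 11, 0 of 11, 1 of 9, 0 of 11, 0 of 10, 1 of 11, 1 of 9 and 0 of 8. Of all genes with the filter, 9.15%, 5.84%, 10.7%, 0.306%, 0.706%, 5.1%, 8.78% and 0.705% were higher. With the filter 9.58%, 6.94%, 8.77%, 0.49%, 0.123%, 11.0%, 9.05% and 0.0% were lower. Of all genes with no filter, 11.4%, 9.63%, 13.3%, 9.34%, 13.1%, 9.33%, 10.0% and 12.0% were higher in that order. Lower were 28.2%, 27.0%, 26.4%, 7.7%, 3.86%, 29.6%, 39.2% and 15.8%. At 20 CPM the other imprinted genes past the fold were 5, 3 and 3 of 15 in the stage pairs, with 3, 2 and 2 of them lower. Over CS BFUE they were 2 of 15, both lower. They were 0 throughout at 2-fold, and 1 of 11 in the FACS pair without other-type clusters. The shares of all genes at 2-fold and without those clusters were not computed, nor the share higher at 20 CPM. Over the pathway lists, without other-type clusters, PE-low over FACS BFU-E had 0 higher and 1 lower of 41, against 1 and 0 of 43 as reported. PE-high over PE-low had 3 and 4 of 42, against 4 and 6 of 43, and the FACS pair 5 and 5 of 43, against 5 and 7 of 45. The floor of 3 UMIs equals 0.273 CPM in PE-high and 1.01 CPM in CS BFUE, a limit for low genes such as Igf2, Meg3 and Plagl1.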
